A study of Mus musculus with 8 samples.

Results

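The tumour necrosis factor (TNF) superfamily of ligands and receptors was described in single cells of mouse dorsal skin. Members were chosen by gene symbol, as the numbered Tnfsf ligand and Tnfrsf receptor genes together with Tnf, Lta, Ltb, Fas, Fasl, Cd40 and Cd27, which gave 38 genes (15 ligands and 23 receptors) of the 31053 genes in the count tables. The samples were 8 libraries from female BALB/c mice of 14 to 16 weeks, 4 after subcutaneous injection of PBMCsec, the secretome of irradiated human peripheral blood mononuclear cells, and 4 after injection of vehicle. The labels do not give wounding, the time point or the content of the vehicle, whereas the methods of the study describe scars of excision wounds, NaCl and medium as controls, and collection at either of 2 times, so a library cannot be placed at a time or control and these factors cannot be told apart from the spread within a group. Nothing in the labels says that libraries came from separate mice, so all p-values measure only the spread between these libraries, which may be technical.

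Of 26231 barcodes, 6150 passed the filter used in the study, between 151 and 1659 a library, and 16900 were over its limit on mitochondrial counts. Kept cells had median depths of 6156 to 9521 unique molecular identifiers (UMIs) a library, and 4 barcodes were shared by kept cells of different libraries. Cells fell into 36 clusters, of which 33 were named after their markers, which means resemblance by those genes, and 334 cells (5.43%) stayed in 3 unnamed clusters. The largest classes were 1510 hair follicle cells (HFs), 1483 fibroblasts (FBs), 1134 keratinocytes (KCs), 836 T cells and related lymphocytes (TCs) and 517 dendritic cells, Langerhans cells and macrophages (DCs and macrophages). The vehicle libraries 1 and 2 were thin, with 28 and 22 FBs, and vehicle library 1 held only 10 KCs and 13 HFs.

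TNF superfamily ligands are mostly trimeric proteins anchored in the membrane, which a protease such as Adam17 can release, and their receptors cluster on binding. Many receptors without a death domain recruit Traf adaptors and activate NF-κB. Fas, Tnfrsf1a, Tnfrsf10b, Tnfrsf21 and Tnfrsf25 carry a death domain and can also lead to caspase activation. In skin, Langerhans cells, T cells and keratinocytes are known users of the family, and several receptors mark activated T cells. Counts from the 3′ end of transcripts were used, and each level is given as CPM, the UMIs of the gene scaled to a common total for the cells summed and compared within a gene only.

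Several members lie side by side in the genome, and the windows before their starts are shown for the ligand group on chromosome 17 and the receptor pair on chromosome 4 because their neighbours were detected in partly different cell types. Sequences are from RefSeq on GRCm38.p6, 5′ to 3′ on the strand of the gene, and end before the start in RefSeq, or for Ltb and Tnfrsf18 before the earlier start of the same gene in GENCODE, so that the bases shown precede both starts. Capitals mark a TATAAA box or, in Ltb, a match to the κB consensus on the opposite strand.
Tnf chr17:35202008-35202257 (-): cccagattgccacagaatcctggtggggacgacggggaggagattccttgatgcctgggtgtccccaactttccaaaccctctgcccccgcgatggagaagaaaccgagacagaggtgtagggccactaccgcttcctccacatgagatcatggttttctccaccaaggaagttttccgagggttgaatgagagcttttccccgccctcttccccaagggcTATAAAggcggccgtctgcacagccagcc
Lta chr17:35205352-35205601 (-): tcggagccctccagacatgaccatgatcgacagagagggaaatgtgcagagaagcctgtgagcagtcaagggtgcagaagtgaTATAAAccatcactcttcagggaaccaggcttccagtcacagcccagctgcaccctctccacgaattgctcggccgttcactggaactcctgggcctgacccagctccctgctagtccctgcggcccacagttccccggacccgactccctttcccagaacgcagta
Ltb chr17:35194257-35194438 (+): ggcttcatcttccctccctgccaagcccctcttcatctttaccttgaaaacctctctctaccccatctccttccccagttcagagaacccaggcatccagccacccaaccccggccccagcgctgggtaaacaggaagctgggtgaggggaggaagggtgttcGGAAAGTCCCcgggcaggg
Tnfrsf4 chr4:156013445-156013694 (+): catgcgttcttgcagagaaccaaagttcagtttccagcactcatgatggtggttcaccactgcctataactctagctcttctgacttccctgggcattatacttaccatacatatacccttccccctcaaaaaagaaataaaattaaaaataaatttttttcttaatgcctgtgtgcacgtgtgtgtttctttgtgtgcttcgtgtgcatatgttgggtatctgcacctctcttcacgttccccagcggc
Tnfrsf18 chr4:156026072-156026163 (+): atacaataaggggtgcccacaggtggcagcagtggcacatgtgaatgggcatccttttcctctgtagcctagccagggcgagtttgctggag

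Counted from the RefSeq start, the box of Tnf lay 29 to 24 bases before it, whereas that of Lta lay 167 to 162 bases before it. The κB match of Ltb lay 87 to 78 bases before its RefSeq start at base 35194507, and its GENCODE start is nearer to the match, at base 35194439. Among 30 members with a promoter in the table, 6 held TATAAA (12.4% of 32851 promoters), 4 held the κB consensus (7.25% of all), 6 held TGANTCA (6.75%) and 3 held TGTGGT (14.0%), counted on both strands. These matches are descriptions of letters. On GRCm38 in the GENCODE M21 annotation, Tnfrsf1a lies at chr6:125349362-125362484, Tnfrsf12a at chr17:23675445-23677468, Tnfsf9 at chr17:57105325-57107757, Tnfsf12 at chr11:69686250-69695849 and Fas at chr19:34290666-34327772. Ltb and Tnf are separated by 3061 bases, Tnf and Lta by 1158 bases, and Tnfrsf4 and Tnfrsf18 by 9552 bases.

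Members contributed 29814 UMIs, and 5498 of the 6150 kept cells held at least 1 of them. At least 200 UMIs were found for 23 members (7 ligands and 16 receptors), which are described by cell type. The remaining 15 had fewer. They are given by counts, with levels by library for the 3 with most. These are Tnfsf14 (170 UMIs, 37 of them in ILC2-like cells and 27 in neutrophils), Tnfrsf25 (168), Lta (145), Tnfrsf22 (109), Tnfsf11 (109, 68 of them in the Ctla4 and Icos T cell cluster), Tnfrsf14 (81), Fasl (76, 41 in the Gzma and Xcl1 cluster), Tnfsf18 (58, 45 in KCs), Tnfrsf26 (58), Tnfrsf13c (35, 28 in DCs), Tnfrsf8 (23), Tnfsf15 (23), Tnfsf13 (6), Tnfrsf17 (2) and Tnfsf4 (1). Tnfsf14 (LIGHT), a ligand of Ltbr and Tnfrsf14, was at 124 ± 49.2 CPM in neutrophils and 113 ± 37.2 in ILC2-like cells (n = 4 each), which overlapped. Neutrophil levels came from PBMCsec libraries 1, 2 and 4 and vehicle library 2. ILC2-like levels came from PBMCsec library 3 and vehicle libraries 1, 3 and 4, so cell type and library cannot be told apart. Tnfrsf25 (DR3), a death domain receptor of lymphocytes, was at 83.4 ± 20.2 in γδ T cells led by 5830411N06Rik and Blk (n = 4). Lta, the soluble lymphotoxin, was at 40.6 ± 18.5 in TCs (n = 8).

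**Figure D1:**
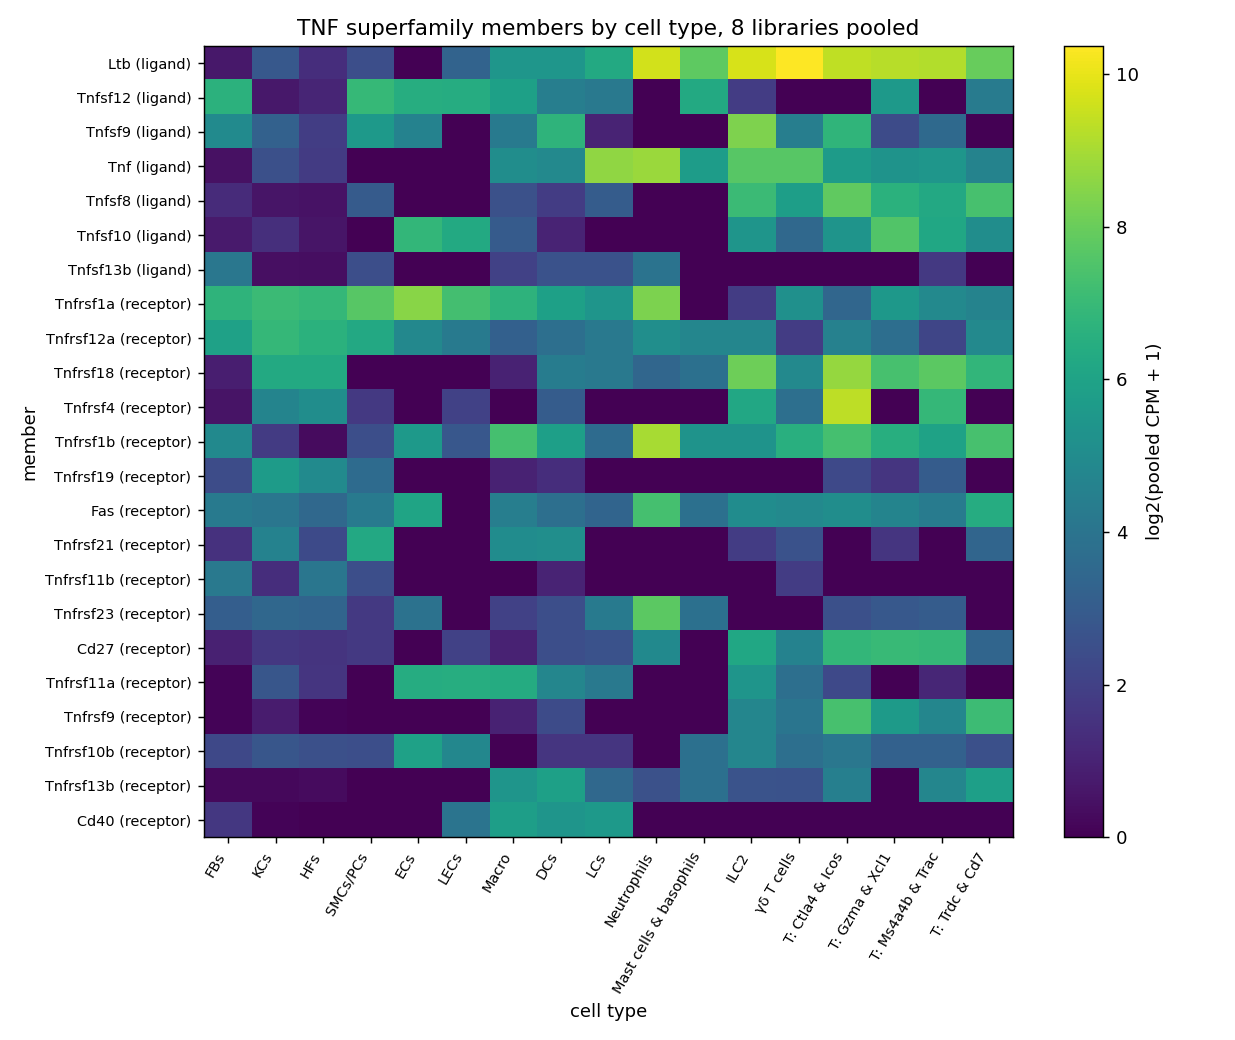
Level of the 23 members with at least 200 UMIs (rows) in each cell type (columns), as log2(CPM + 1) with the cells of all 8 libraries pooled, brighter being higher. Ltb and Tnfrsf18 were highest in lymphocyte types, Tnfsf12 in stromal types, and Tnf in neutrophils and Langerhans cells.

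Among ligands, Tnf, the founding inflammatory cytokine of the family, was highest in neutrophils (443 ± 201 CPM, SD, n = 4 libraries, lowest 187, median 465, highest 656) and Langerhans cells (441 ± 117, n = 5, 312 to 590). ILC2-like cells (221 ± 103, n = 4) and the γδ T cell cluster led by 5830411N06Rik and Blk (201 ± 54.3, n = 4, 136 to 269) followed. The first pair, and likewise the second, differed by less than their spread. In the T cell cluster led by Trdc and Cd7 (55 cells), Tnf was lower, at 23.6 CPM pooled from 5 UMIs.

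Ltb, the membrane subunit of the lymphotoxin heterotrimer that engages Ltbr, had another order. The γδ T cell cluster led by 5830411N06Rik and Blk had 1150 ± 187 CPM (n = 4). Neutrophils had 833 ± 265 (n = 4) and ILC2-like cells 804 ± 237 (n = 4), and the levels overlapped. No library gave both the neutrophil and the ILC2-like level, so cell type and library cannot be told apart between them. Over all TCs it was 696 ± 89.7 CPM in 8 libraries, against 52.9 ± 16.9 in DCs and macrophages. Its receptor Ltbr, which the symbol rule does not include, was at 47.8 ± 7.0 CPM in FBs.

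Tnfsf12 (TWEAK), the ligand of Tnfrsf12a, was read mostly in stromal cells and endothelium in these libraries. Smooth muscle cells and pericytes (SMCs/PCs) had 133 ± 30.5 CPM (n = 5) and FBs 101 ± 46.7 (n = 8, 60.6 to 210, median 90.9), which overlapped, and macrophages had 62.7 ± 16.4 (n = 6). Pooled over libraries, Tnfsf12 was at 88.1 CPM in 34 endothelial cells and 83.6 CPM in 50 lymphatic endothelial cells. In 27 mast cells and basophils it was at 78.0 CPM from 6 UMIs. No KC or HF library exceeded 20.4 CPM. The readthrough gene Tnfsfm13 overlaps Tnfsf12 on the same strand and was counted apart with 33 UMIs.

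Tnfsf9 (CD137 ligand), which costimulates T cells through Tnfrsf9, varied widely between libraries. It was at 393 ± 376 CPM in ILC2-like cells (n = 4, 0 to 904), 120 ± 57.1 in the Ctla4 and Icos cluster (n = 8) and 84.4 ± 68 in DCs (n = 7). FBs had 25.6 ± 13.7 (n = 8), although their cluster led by Ptx3, Ccl2 and Cxcl1 (88 cells) had 183 CPM over all libraries pooled (95% exact Poisson interval 153 to 216). KCs held 1.64 to 11.9 CPM in 7 libraries and 497 CPM in vehicle library 1, where all 56 UMIs came from 1 cell. Markers of mast cells and basophils summed to 1233 CPM in KCs of that library. The 27 mast cells and basophils themselves held 0 Tnfsf9 UMIs among 76899. The source of the value was not tested.

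Of the remaining ligands, Tnfsf8 was read in T cell clusters, Tnfsf10 in lymphocyte clusters and endothelium, and Tnfsf13b in FBs. Tnfsf8 (CD30 ligand) was at 225 ± 77.4 CPM in the Ctla4 and Icos cluster (n = 8, 150 to 365) and at 78.8 ± 39.9 in the Ms4a4b cluster (n = 8). Tnfsf10 (TRAIL), an inducer of apoptosis, was at 180 ± 66.8 in the Gzma and Xcl1 cluster (n = 6). The leading genes of that cluster included Nkg7, Ncr1 and Klrd1 and no Cd3 or T cell receptor gene, so its cells may not be T cells. Pooled over libraries, Tnfsf10 was at 116 CPM in 34 endothelial cells and 77.6 CPM in 50 lymphatic endothelial cells. Tnfsf13b (BAFF), a survival factor for B cells, was at 15.5 ± 10.2 in FBs (n = 8, 4.27 to 37.1), which held 216 of its 252 UMIs.

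Receptors for the early ligands were spread more widely. Tnfrsf1a, the main TNF receptor of non-immune cells with 5736 UMIs, was at 131 ± 26.1 CPM in KCs, 125 ± 25.3 in HFs and 109 ± 12 in FBs (n = 8 each), and these overlapped. Neutrophils had 295 ± 120 (n = 4) and DCs 60.5 ± 8.79 (n = 7). At the limit of 10% mitochondrial counts, SMCs/PCs had the highest mean of the classes for Tnfrsf1a, at 303 CPM. Tnfrsf1b, the second TNF receptor, was by contrast at 534 ± 209 CPM in neutrophils (n = 4, 281 to 741), 151 ± 70.4 in macrophages (n = 6) and 146 ± 76.5 in the Ctla4 and Icos cluster (n = 8).

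Tnfrsf12a (Fn14), a receptor known to be inducible in injured tissue, was at 129 ± 34.3 CPM in KCs and 96.6 ± 16.7 in HFs (n = 8 each). FBs ranged from 8.53 to 89.3 CPM (44.0 ± 28.1, n = 8), and their Ptx3 cluster had 196 CPM pooled (interval 165 to 231). Within KCs the cluster led by Serpinb2 and Fosl1 had 214 ± 42.2 (n = 6). An unnamed cluster led by Dio3 and Tagln had 233 ± 51.1 (n = 5).

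Among the death receptors, Fas was at 151 ± 31.1 CPM in neutrophils (n = 4, 106 to 177) and 13.3 ± 8.29 in FBs (n = 8). Tnfrsf21 (DR6) was at 81.7 ± 57.5 in SMCs/PCs (n = 5) and near 33 in macrophages (33.8 ± 11.1) and DCs (33.3 ± 12.7). Tnfrsf10b, the mouse TRAIL death receptor, had 60.3 CPM in pooled endothelial cells, and Tnfrsf23, a decoy receptor for TRAIL, had 189 ± 164 in neutrophils (n = 4).

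Of the RANK system, known from bone and mammary gland, Tnfrsf11a (RANK) was at 94.5 ± 36.7 CPM in macrophages (n = 6). Pooled over libraries, Tnfrsf11a was at 86.5 CPM in 50 lymphatic endothelial cells and 83.5 CPM in 34 endothelial cells. Tnfrsf11b (osteoprotegerin), the soluble decoy of its ligand Tnfsf11, was instead at 79.3 ± 41.3 in the Ednrb and Col11a1 FB cluster and 44.4 ± 19.1 in the Ptn and Grem1 HF cluster (n = 5 each). Tnfrsf19 (TROY), a receptor known from follicle stem cells, was at 118 ± 23.6 in the Krt35 HF cluster (n = 3), 85.1 ± 10.4 in the Gnai1 and Krt14 KC cluster (n = 6) and 53.4 ± 10.5 in all KCs (n = 8).

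Receptors of antigen presentation and lymphocyte survival were read in immune cells. Cd40, which receives the T cell signal Cd40lg, was at 56.6 ± 39.3 CPM in macrophages and 55.1 ± 18.6 in Langerhans cells, and Cd40lg itself was at 91.7 ± 29.8 in TCs. Tnfrsf13b (TACI) was at 60.7 ± 26.2 in DCs (n = 7). Cd27, a costimulatory receptor, was at 124 ± 52.4 in the Ms4a4b cluster and 121 ± 23.4 in the Gzma cluster, and Tnfrsf9 (CD137) was at 144 ± 98.3 in the Ctla4 and Icos cluster.

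Tnfrsf4 (OX40) and Tnfrsf18 (GITR), costimulatory receptors known from activated and regulatory T cells, were both also counted in epithelium. In the Ctla4 and Icos cluster Tnfrsf4 was at 643 ± 172 CPM and Tnfrsf18 at 415 ± 97.5 (n = 8 each), and over all TCs at 232 ± 61.2 and 246 ± 45.2. Tnfrsf18 reached 84.4 ± 20.1 CPM in KCs and 78.5 ± 16.5 in HFs against 0.77 ± 0.76 in FBs (n = 8 each). Tnfrsf4 reached 25.8 ± 16.0 in KCs and 29.6 ± 9.56 in HFs against 0.26 ± 0.35 in FBs.

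For Tnfrsf18, KC libraries held 76.3, 130.7, 67.3 and 90.7 CPM with PBMCsec and 71.0, 85.3, 78.5 and 75.6 with vehicle, and no FB library came near them. For Tnfrsf4 in KCs the values were 42.7, 23.8, 22.1 and 23.9 CPM, and 0, 53.1, 17.1 and 24.1, where the count of 0 in vehicle library 1 allows up to 26.6 CPM. KCs thus held a UMI of Tnfrsf18 in each library and of Tnfrsf4 in 7 of 8. Inside the epithelium Tnfrsf4 was at 66.3 ± 23 CPM in the Serpinb2 KC cluster (n = 6) and 62.6 ± 7.54 in the Id4 and Gnmt HF cluster (n = 5), but at 2.2 ± 1.51 in Krt1 and Krt10 KCs and 1.72 ± 3.84 in Krt71 HFs. Tnfrsf18 was at 147 ± 21.5 in the Sostdc1 and Ccl27a HF cluster (n = 6) and 29.6 ± 10.5 in Krt1 and Krt10 KCs (n = 5). The unnamed cluster led by Dio3 and Tagln held 116, 148 and 219 CPM in PBMCsec libraries 1, 3 and 4. In vehicle libraries 3 and 4 this cluster held 240 and 205 CPM, so its range met that of TC libraries (lowest 182).

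By cells, Tnfrsf18 was detected in 44.3% of KCs, 39.7% of HFs and 43.7% of TCs, and in 0.742% of FBs, while the median depths were 10727, 9252, 3342 and 8997 UMIs. With every cell thinned to 1000 UMIs, which left out 121 cells, the shares were 6.24%, 7.04%, 18.8% and 0.203%. Tnfrsf4 was in 18.1% of KCs, 20.7% of HFs, 26.3% of TCs and 0.405% of FBs, and in 2.50%, 2.87%, 13.8% and 0.0676% after thinning. FBs, at a depth near that of the epithelium, are given for reference, and the part of free RNA in the epithelial counts was not tested. Of 312 HFs with Tnfrsf4, 180 also held Tnfrsf18, of 205 such KCs 128 did, and of 220 such TCs 151 did. Of the 1483 FBs none held both, which allows up to 0.202%. Only 6 FBs held Tnfrsf4 and 11 held Tnfrsf18, too few to show whether the receptors occur together there.

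In KCs most T cell markers were in a larger share of cells with Tnfrsf4 than without. In HFs they went either way. Cd3e was in 2.93% of the 205 KCs with Tnfrsf4 and 1.61% of the 929 without, and Cd4 in 2.44% and 0.215%. Likewise Cd3d was in 2.44% and 1.29%, Cd3g in 2.93% and 1.72%, and Trac in 2.44% and 0.969%. Trbc2 (11.7% and 20.9%), Cd8a (0% and 0.215%) and Cd8b1 (0% and 0.323%) went the other way. Krt14 was in 98.0% and 87.3% of these KCs. In HFs Cd3e was in 0.641% of those with Tnfrsf4 and 0.501% of those without, and Trac in 0 of 312, which allows up to 0.962%, while Trbc2 was in 46.5% and 23.3%. The part of captured T cells in these counts was not tested.

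**Figure D2:**
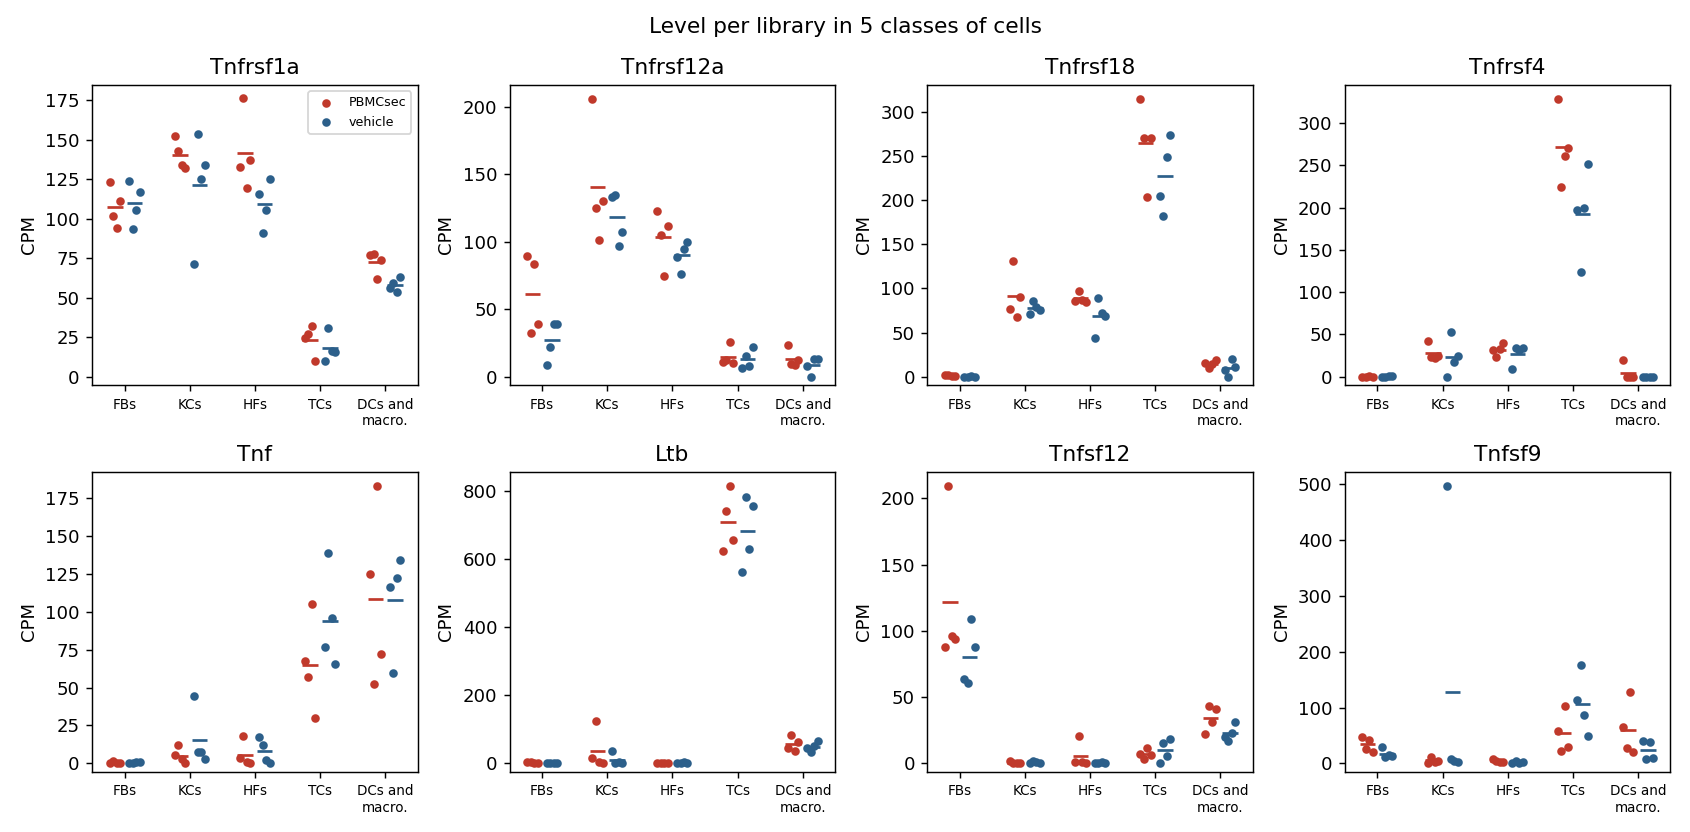
CPM (linear axis) of 8 members in the 5 classes, 1 point a library, with short lines at the means of PBMCsec (red) and vehicle (blue). For Tnfrsf18 the KC and HF libraries lie between 44.4 and 131 CPM, below every TC library and far above FBs at 0.77 on average.

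To ask whether PBMCsec went with other levels, counts were summed by library and class and tested with the quasi-likelihood test of edgeR. No member passed an adjusted p of 0.05 in any class (smallest adjusted p = 1), and no gene of the whole table did (0% in each comparison). DESeq2 called 0 genes in FBs, 3 in TCs, 5 in KCs, 7 in DCs and macrophages, 1 in HFs and 8 over all kept cells, none of them a member. The statements below therefore give values and not changes. Of members tested, the log2 fold change was above 0 for 8 of 9 in FBs (50.1% of all genes), 8 of 14 in TCs (48.9%), 5 of 9 in KCs (52.0%), 9 of 10 in DCs and macrophages (47.0%), 7 of 9 in HFs (51.9%) and 20 of 30 over all kept cells (46.7%). HFs were added as a class once cells had been counted. The tested members are those that passed a filter on low counts. With the libraries numbered 3 and 4 alone, which hold most cells, 6 of 9 were above 0 in FBs, 8 of 14 in TCs, 8 of 11 in KCs, 8 of 11 in DCs and macrophages and 7 of 8 in HFs. The share of all genes above 0 in that setting is not given, so these counts cannot be read as a trait of the members. Summed markers of other cell types overlapped between the groups in all 98 combinations of class and marker list. Most single genes overlapped as well, so this count cannot show that counts from other cell types were balanced.

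**Figure D3:**
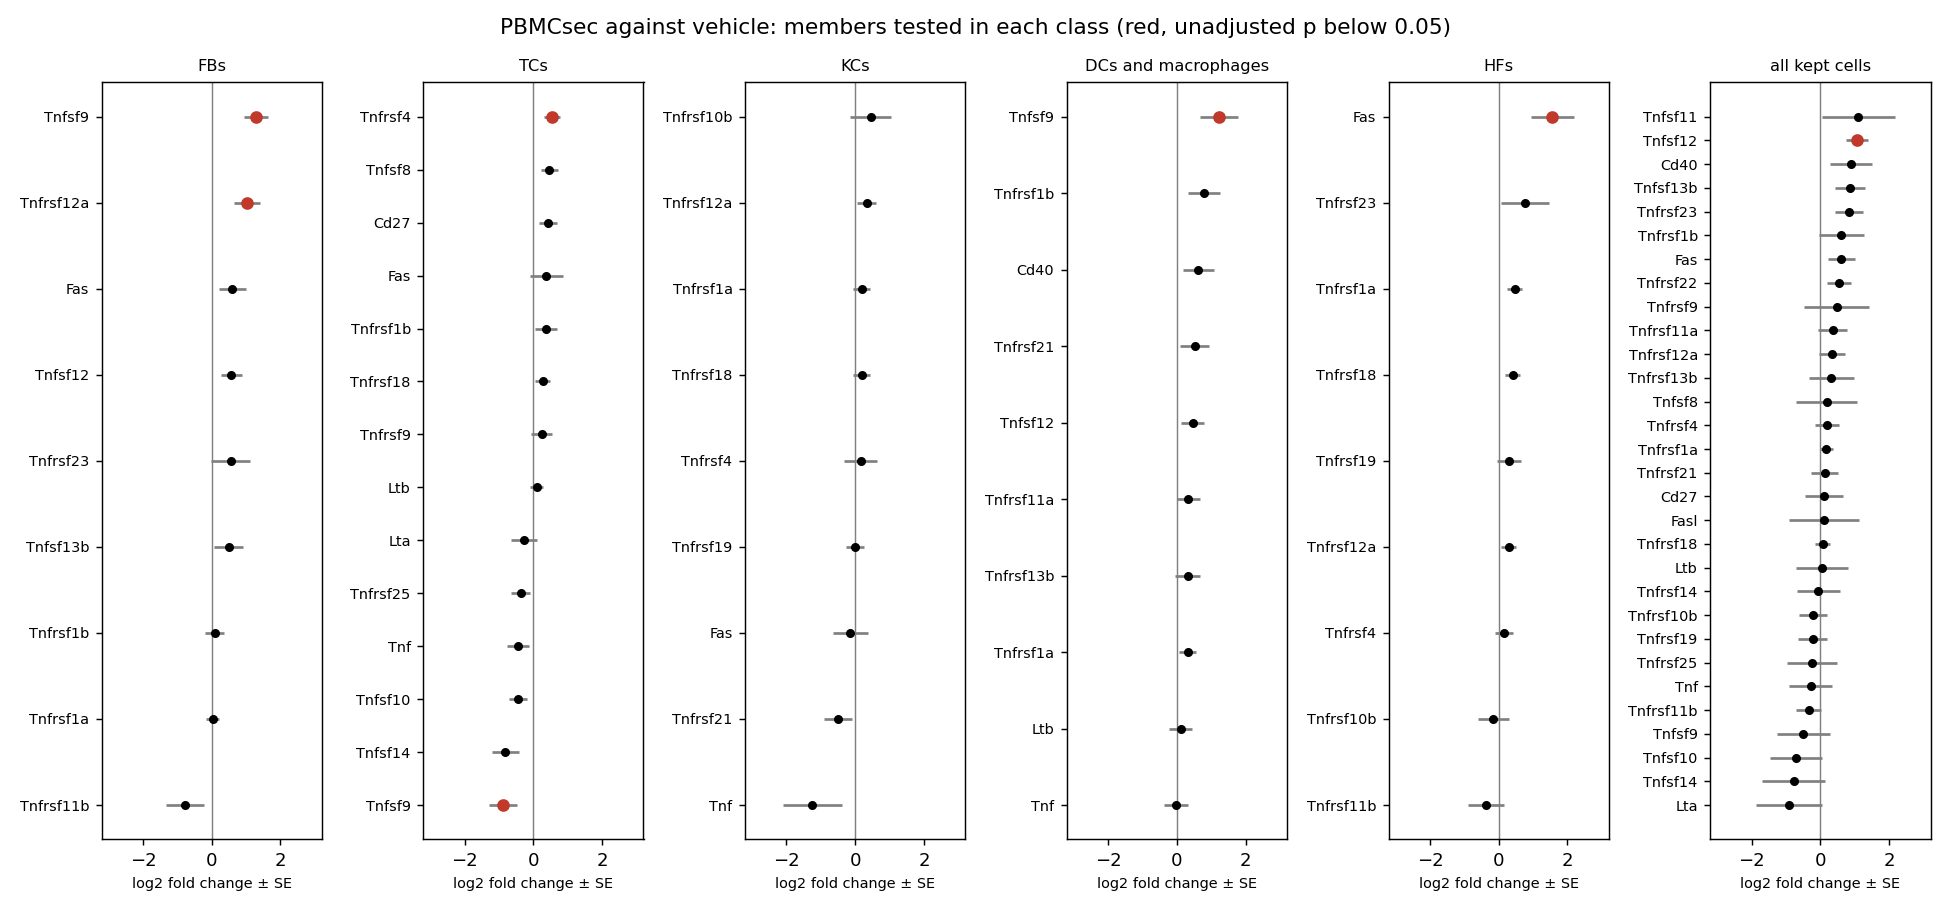
Log2 fold change, PBMCsec over vehicle, of each tested member in each class, with bars of 1 SE and an unadjusted p under 0.05 in red. Red points are Tnfsf9 and Tnfrsf12a in FBs, Tnfrsf4 and Tnfsf9 in TCs, Tnfsf9 in DCs and macrophages, Fas in HFs and Tnfsf12 over all kept cells.

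In FBs, 2 members had an unadjusted p under 0.05 with PBMCsec higher in value (1.15% of the 9412 genes tested), and no member had groups apart (0.733% of genes with PBMCsec above and 0.924% below). Tnfsf9 was at 49.1, 26.4, 43.1 and 22.5 CPM after TMM scaling with PBMCsec, and at 28.9, 11.6, 13.8 and 12.6 with vehicle. The groups overlapped through vehicle library 1 alone. The log2 fold change was 1.28 ± 0.35 (SE), with an unadjusted p of 0.0029 in edgeR and an exact permutation p of 0.0857.

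Tnfrsf12a in FBs was at 92.5, 33.0, 84.0 and 41.6 CPM with PBMCsec and 8.26, 23.3, 36.9 and 39.1 with vehicle, 1.02 ± 0.38 on the log2 scale (edgeR p = 0.0197, exact permutation p = 0.114). The groups overlapped, and vehicle libraries 1 and 2 rested on 2 and 4 UMIs. The Ptx3 cluster, which held both genes at high levels, made 5.26, 0, 9.79 and 5.37% of FBs with PBMCsec and 0, 0, 4.44 and 2.45% with vehicle. Without it the log2 fold changes were 1.15 for Tnfsf9 and 0.98 for Tnfrsf12a, and with the libraries numbered 3 and 4 alone they were 1.37 and 0.78.

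Other FB members had smaller values. Tnfsf12 was at 91.3, 215, 96.7 and 99.4 CPM against 61.9, 64, 103 and 88 (0.56 ± 0.31), and at 0.20 without PBMCsec library 2. Tnfrsf1a (0.03 ± 0.20), Tnfrsf1b (0.09 ± 0.27), Tnfsf13b (0.49 ± 0.42) and Fas (0.60 ± 0.40) were less than 2 SE from 0, as was Tnfrsf11b, which was lower in value (-0.79 ± 0.55). Fas was not counted in vehicle library 2, which allows up to 16.5 CPM.

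**Figure D4:**
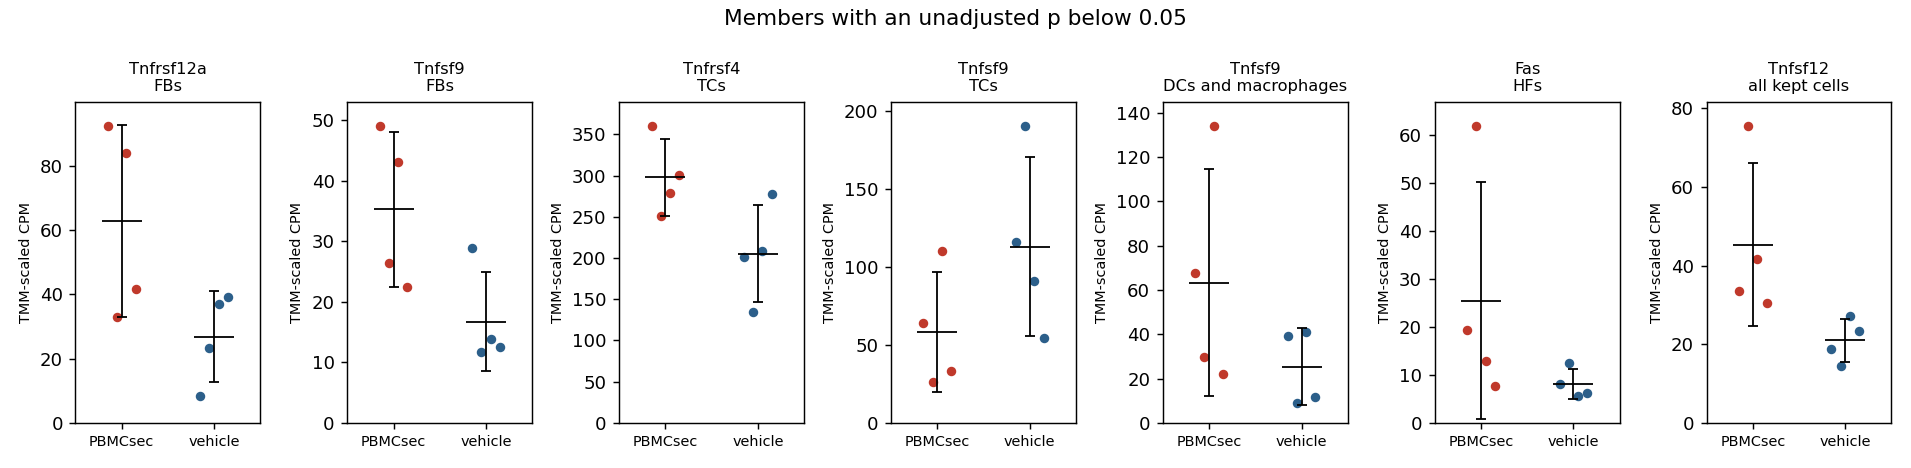
TMM-scaled CPM of the members with an unadjusted p under 0.05, 1 point a library (PBMCsec red, vehicle blue), lines and bars mean ± SD of 4 libraries. For Tnfsf9 in FBs the PBMCsec libraries lie at 22.5 to 49.1 and the vehicle libraries at 11.6 to 28.9.

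In TCs, Tnfrsf4 was at 361, 251, 279 and 301 CPM with PBMCsec and 201, 134, 208 and 277 with vehicle, 0.54 ± 0.23 on the log2 scale (edgeR p = 0.0351, exact permutation p = 0.0571), and such a p with PBMCsec higher was found for 1.85% of the 4754 genes. Tnfsf9 was lower in value, at 64.0, 25.9, 110 and 33.4 CPM against 116, 191, 91.1 and 54.8 (-0.89 ± 0.42, edgeR p = 0.0493, exact permutation p = 0.171), and such a p with PBMCsec lower was found for 1.91% of the genes. The groups overlapped for both genes and for every other TC member, while 1.14% of genes lay apart with PBMCsec above and 1.26% below, and an unadjusted p under 0.05 in either direction was found for 3.77%. In PBMCsec library 3, 37 of 64 Tnfsf9 UMIs came from 1 cell.

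The makeup of TCs also varied between libraries. ILC2-like cells made 7.55, 5.15, 8.16 and 4.44% of TCs with PBMCsec and 26.3, 7.41, 10.7 and 22.9% with vehicle, and the Ctla4 and Icos cluster 34.0, 29.9, 28.1 and 34.4% against 21.1, 29.6, 24.3 and 28.1%. Both shares overlapped between the groups. The part of makeup in the Tnfsf9 and Tnfrsf4 values was not tested beyond leaving clusters out. Leaving out a cluster does not separate its share of TCs from the level in its cells. Without ILC2-like cells Tnfsf9 was at -0.67, and without the Ctla4 and Icos cluster Tnfrsf4 was at -0.01. With the libraries numbered 3 and 4 alone, Tnfsf9 turned its direction. Tnfsf8 was at 182, 174, 145 and 152 CPM against 133, 164, 85.5 and 92.5 (0.46 ± 0.24), and Tnfrsf18 at 345, 303, 217 and 301 against 208, 198, 259 and 301 (0.27 ± 0.22). Ltb was nearer to 0, at 685, 832, 870 and 731 against 572, 851, 658 and 832 (0.10 ± 0.19), and Tnfrsf1b was at 0.36 ± 0.32. The groups overlapped for all 4. The labels give a number to each library but name no pairs. With the number as a replicate block 3 genes passed the adjusted p in place of 0, none of them a member. Tnfrsf4 was then at 0.57 and Tnfsf9 at -0.97.

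In KCs no member had an unadjusted p under 0.05 (0.897% of all genes did) and none had groups apart (0.702% of genes with PBMCsec above, 0.575% below). Tnfrsf1a (0.19 ± 0.25), Tnfrsf12a (0.33 ± 0.27), Tnfrsf18 (0.19 ± 0.25), Tnfrsf19 (-0.0037 ± 0.27) and Tnfrsf21 (-0.49 ± 0.41) all overlapped between groups. Tnfrsf1a was at 162, 148, 138 and 131 CPM with PBMCsec and 67.4, 158, 121 and 141 with vehicle, where the low value came from the 10 KCs of vehicle library 1.

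In HFs, Fas was at 19.4, 62.0, 12.9 and 7.79 CPM with PBMCsec and 8.18, 12.4, 5.57 and 6.28 with vehicle, 1.55 ± 0.63 on the log2 scale (edgeR p = 0.0296, exact permutation p = 0.114), where 2.08% of 9741 genes had such a p with PBMCsec higher and 3.15% in either direction. The groups overlapped, as for every HF member, while 1.18% of genes lay apart with PBMCsec above and 0.749% below. Of the 22 UMIs in PBMCsec library 2, 16 came from 1 cell, and the log2 fold change was 0.93 without that library. SMC/PC markers summed to 4930 CPM in HFs of that library, against 71.0 to 352 in the vehicle libraries, and their part in the Fas value was not tested.

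Tnfrsf1a in HFs was at 140, 195, 120 and 143 CPM against 106, 91.9, 99.1 and 128 (0.46 ± 0.21), and Tnfrsf18 at 91.2, 107, 87.5 and 87.6 against 40.9, 89.4, 67.3 and 70.5 (0.40 ± 0.21). In both, 1 vehicle library reached into the PBMCsec range, vehicle library 4 for Tnfrsf1a and vehicle library 2 for Tnfrsf18. Tnfrsf12a (0.29 ± 0.22), Tnfrsf4 (0.17 ± 0.26) and Tnfrsf19 (0.30 ± 0.35) were nearer to 0.

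In DCs and macrophages, Tnfsf9 was at 67.7, 29.5, 134 and 21.9 CPM with PBMCsec and 39.4, 9.11, 41.1 and 11.8 with vehicle, 1.22 ± 0.56 on the log2 scale (edgeR p = 0.0479, exact permutation p = 0.2), where 2.61% of 5590 genes had such a p with PBMCsec higher, 2.06% lower and 4.67% in either direction. The groups overlapped, as for every member there (1.27% of genes lay apart with PBMCsec above, 1.43% below), and the value was 0.54 without PBMCsec library 3. Tnf was at 131, 55.8, 191 and 76.5 CPM against 114, 63.8, 129 and 151 (-0.03 ± 0.35). Both receptors of Tnf were higher in value, Tnfrsf1b at 140, 141, 62.6 and 38.2 CPM against 74.9, 54.6, 20.6 and 76.8 (0.79 ± 0.47) and Tnfrsf1a at 80.7, 82, 64.9 and 78.3 against 55.2, 63.8, 56.6 and 70.9 (0.31 ± 0.24). Each overlapped between groups, as did Ltb (0.10 ± 0.33).

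Over all kept cells Tnfsf12 was at 33.5, 75.6, 41.6 and 30.6 CPM with PBMCsec and 18.7, 14.6, 27.2 and 23.3 with vehicle, 1.07 ± 0.33 on the log2 scale (edgeR p = 0.0093, exact permutation p = 0.0286, the smallest that 4 against 4 can give). The groups did not overlap, as for 1.10% of 13182 genes with PBMCsec above. Tnfsf12 was the only member with an unadjusted p under 0.05 over all kept cells, where 2.54% of genes had one, 1.97% with PBMCsec higher. FBs, where Tnfsf12 was high, made 24.4, 22, 34.4 and 18.8% of cells with PBMCsec and 18.5, 10.6, 21.7 and 20.1% with vehicle, and without FBs the log2 fold change was 0.97. It was 0.72 without PBMCsec library 2 and 0.52 with the libraries numbered 3 and 4 alone. In such sums fewer cells of a type and less RNA a cell cannot be told apart. Ltb (0.04 ± 0.75), Tnfrsf1a (0.17 ± 0.19), Tnfrsf12a (0.33 ± 0.38), Tnfrsf18 (0.07 ± 0.22) and Tnfrsf4 (0.18 ± 0.35) overlapped.

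Genes downstream of the receptors were described by lists that were chosen with earlier results known. None of their genes passed the adjusted p. The counts above 0 below stand beside the shares of all genes above 0 given earlier, near an even split in each class. Of the TNF-induced genes 11 of 17 tested were above 0 in FBs (median log2 fold change 0.63, all genes 0.00). Their values ranged from -0.35 to 4.26, and 6 had an unadjusted p under 0.05, all with PBMCsec higher, Cxcl2 (4.26 ± 1.05), Il6 (3.97 ± 1.12), Cxcl1 (2.39 ± 0.80), Ptgs2 (1.56 ± 0.71), Vcam1 (0.86 ± 0.31) and Csf1 (0.73 ± 0.30), named after their values were seen. The share of all FB genes with such a p and PBMCsec higher is given earlier. Il6, Cxcl1 and Ptgs2 are among the leading genes of the Ptx3 cluster. That cluster made 5.26, 0, 9.79 and 5.37% of FBs with PBMCsec and 0, 0, 4.44 and 2.45% with vehicle. Without the Ptx3 cluster 9 of 16 of the TNF-induced genes were above 0 with a median of 0.31. A response to TNF as a cause of these values was not tested. In HFs 9 of 9 were above 0 (median 0.92, all genes 0.01), in DCs and macrophages 13 of 17 (0.34, all genes -0.02), in TCs 8 of 12 (0.13, all genes -0.01) and in KCs 3 of 9 (-0.03, all genes 0.01). The FB median ranged from 0.08 to 1.14 over the alternatives, and the HF median from 0.28 to 1.09.

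Of NF-κB subunits and inhibitors 16 of 16 were above 0 in HFs (median 0.49), 15 of 16 in DCs and macrophages (0.35), 12 of 16 in FBs (0.28, and 10 of 16 with 0.17 without the Ptx3 cluster), 7 of 14 in TCs (0.01) and 7 of 15 in KCs (-0.03). All genes were near an even split in each of these classes, and a cause of the counts was not tested. Nfkbia, the inhibitor that NF-κB itself induces, was at 811, 880, 394 and 198 CPM in HFs with PBMCsec and 294, 430, 225 and 203 with vehicle (0.99 ± 0.42, edgeR p = 0.036, exact permutation p = 0.257), and at 0.69 ± 0.32 in DCs and macrophages, 0.41 ± 0.50 in FBs, -0.08 ± 0.24 in TCs and -0.29 ± 0.33 in KCs. PBMCsec library 4 lay below all vehicle libraries in HFs. Tnfaip3, a deubiquitinase that dampens the pathway, was at -0.44 ± 0.74 in FBs, -0.32 ± 0.23 in TCs, -0.91 ± 0.59 in KCs and 0.24 ± 0.53 in HFs.

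Adaptors and kinases were near an even split, with 13 of 24 above 0 in FBs, 8 of 17 in TCs, 10 of 24 in KCs, 10 of 15 in DCs and macrophages and 15 of 24 in HFs. Birc3, an inhibitor of apoptosis that acts with Traf proteins, was at 0.66 ± 0.30 in DCs and macrophages (edgeR p = 0.0461, exact permutation p = 0.114), while Traf1, an adaptor, was at 0.62 ± 0.42 there and -0.05 ± 0.22 in TCs. Ripk1, the kinase at the branch to cell death, was at 0.13 ± 0.26 in FBs and 0.17 ± 0.30 in TCs. Ltbr was at 0.09 ± 0.21 in FBs.

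Of the death receptor pathway 2 of 9 were above 0 in FBs, 4 of 5 in TCs, 3 of 8 in KCs, 5 of 8 in DCs and macrophages and 3 of 9 in HFs. Casp8, the initiator caspase, was at -0.34 ± 0.28 in FBs and 0.31 ± 0.27 in TCs, and Cflar, its inhibitor, at -0.66 ± 0.35 in KCs and -0.01 ± 0.22 in FBs. Of ligand processing genes 3 of 6 were above 0 in FBs and 0 of 4 in TCs, and Adam17 was at -0.17 ± 0.30 in FBs and 0.36 ± 0.24 in DCs and macrophages.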

How the data were processed

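Single-cell suspensions of 4 mm biopsies were sequenced with the 10x Chromium 3′ kit v3.1 in 4 PBMCsec and 4 vehicle libraries. The authors deposited UMI counts per gene and cell, made with Cell Ranger on mm10 (version 3.0.2 by the submitters' processing notes, whereas the methods of the study name another). Here, a cell was kept when it had between 500 and 4000 genes detected, no more than 20000 UMIs and mitochondrial counts of 5% or less, as in the study. Kept cells were integrated and clustered with Seurat 5.3.0 (2000 features without the members, 30 dimensions, resolution 1) in R 4.3.3, and clusters were named where at least 3 markers were in 25% of cells with a 2-fold excess, a rule set once the clusters had been seen. The members and lists were chosen with earlier results of these data known.

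Levels were computed as CPM by library and cell type where a library had at least 10 cells, and were only described. For treatment, counts were summed by class and library, and the quasi-likelihood test of edgeR 4.0.16 was run on them (filterByExpr, TMM, Benjamini-Hochberg over all genes, adjusted p under 0.05, two-sided), a class needing 20 cells (10 for KCs, HFs and DCs and macrophages) in every library, beside an exact two-sided permutation test over the 70 labellings. The script was tested on simulated data. Members with 200 UMIs got levels by cell type, and in each class those of the 5 highest levels or an unadjusted p under 0.05 were given in full. Intervals and limits of a count of 0 (3 counts) cover counting error only, since a library is 1 sample. Libraries held 14753926 to 37880651 UMIs in all.

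Same-numbered libraries deviated together, with all 4 correlations of their deviations from the group means over 0.1, in TCs (0.13 to 0.40) and over all kept cells (0.29 to 0.57) but not in FBs, KCs, DCs and macrophages or HFs, so the number was used as a block as an alternative. Scrublet scored doublets but called only 21 cells (0.341%), which is too few to have worked, so the 5% of cells with the highest scores were removed as an alternative. Further alternatives were DESeq2 1.42.0, its size factors, no filter on low counts, a limit of 10% mitochondrial counts, a clustering resolution of 0.5, all barcodes, leaving out each library, libraries numbered 1 and 2 or 3 and 4 alone, and, chosen after seeing the data, classes without the Ptx3, ILC2, Ctla4 or FB cells and HFs as a class. Promoters came from RefSeq (GRCm38.p6), where 30 of 38 members matched.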

Additional observations from a re-analysis of the deposited data

Results flagged for a closer look

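Tnfsf12 in FBs of PBMCsec library 2 lay far above its group, at 215 CPM from 130 UMIs where the other 3 libraries were at 91.3 to 99.4. Tnfsf9 in FBs of vehicle library 1 was at 28.9 CPM from 7 UMIs, where the other 3 were at 11.6 to 13.8. Of 66 groups of 4 libraries compared in this way 2 stood out, and chance gives about 1 in 20.

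The log2 fold changes of a member were compared between classes in 37 pairs, and 4 pairs had an exact permutation p of 0.0286, the smallest possible, which became 0.264 after adjustment, so none passed the correction. On the log2 scale the effect on Tnfsf9 was 2.01 greater in FBs than in TCs, and that in TCs minus that in DCs and macrophages was -2.05. The effect on Tnfrsf1a in FBs minus that in HFs was -0.45. For Fas the effect in KCs minus that in HFs was -1.36, and most Fas UMIs of HFs in PBMCsec library 2 came from 1 cell.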

How the results depend on the processing

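Of 583 refits of 33 values by gene and class, 543 kept their direction, 40 turned it and none passed the adjusted p of 0.05. In 19 values the direction was the same throughout, among them Tnfsf9 in FBs. No member was called by edgeR or DESeq2 in any setting. The count of all genes called, 0 in each class, was 45 in TCs, 110 in DCs and macrophages and 1 in KCs without the filter on low counts, and 8 in FBs, 10 in TCs, 1 in KCs and 8 in DCs and macrophages with the libraries numbered 1 and 2 alone. With the block it was 4 in DCs and macrophages, and leaving out 1 library gave at most 2.

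Directions turned for small values, and also for larger ones, namely Tnfsf9 and Tnfrsf4 in TCs and Tnfrsf18 in HFs. Leaving out 1 library at a time gave -0.0448 to 0.1084 for Tnfrsf1a in FBs, -0.0576 to 0.2184 for Tnfrsf1b in FBs, -0.14 to 0.17 for Tnfrsf19 in KCs, -0.39 to 0.19 for Tnf in DCs and macrophages, -0.0788 to 0.3396 for Ltb there, -0.015 to 0.4845 for Tnfrsf19 in HFs, and over all cells -0.81 to 0.47 for Ltb, -0.0881 to 0.2236 for Tnfrsf18 and -0.0447 to 0.3614 for Tnfrsf4. Libraries numbered 3 and 4 alone gave -0.0251 for Tnfrsf1a in FBs, -0.12 for Tnfrsf18 and 0.0868 for Tnfsf9 in TCs, 0.069 for Tnfrsf19 in KCs, -0.26 for Ltb in DCs and macrophages, and -0.0012 for Tnfrsf1a and -0.088 for Tnfrsf18 over all cells. Numbers 1 and 2 alone gave -0.41 for Tnfrsf1b in FBs, 0.0565 for Tnf in DCs and macrophages, -0.25 for Tnfrsf19 in HFs and -0.0731 for Ltb over all cells. The 10% mitochondrial limit gave -0.079 for Tnfrsf1b in FBs, 0.19 for Tnf and -0.24 for Ltb in DCs and macrophages, and -0.0372 for Tnfrsf18 in HFs. Without the Ptx3 cluster Tnfrsf1b in FBs was at -0.0394, and without the Ctla4 cluster Tnfrsf4 in TCs at -0.0053. Tnf in DCs and macrophages was at 0.0455 with no filter on low counts and 0.0506 with the highest doublet scores removed, which left Tnfrsf19 in KCs at 0.0132. The cause was not tested.

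With the library number as a replicate block, Tnfrsf19 in KCs turned to 0.0215, 3 genes were called in TCs and 0 over all cells. No other member changed direction or call. Whether equal numbers mark a pair is not given by the labels. Thin libraries (10 KCs, 13 HFs and 22 FBs at the fewest) limit what could be seen.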
